A study of Homo sapiens with 4 samples.

Results

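The genes described here are 10 transcripts that are widely used to read out the activity of the kinase ERK: the PEA3 group of ETS factors (ETV1, ETV4 and ETV5), the feedback inhibitors SPRY2, SPRY4 and SPRED1, the MAP kinase phosphatases DUSP4, DUSP5 and DUSP6, and PHLDA1. They were chosen by symbol as PEA3 factors and ERK feedback genes, and ETV4 also because the study shows it among genes of this experiment. All 10 were found among the 23228 gene symbols counted. Sequencing of mRNA was done on ES2, a human ovarian cancer cell line, treated for 12 h with 10 nM EC359, a small molecule inhibitor of the LIF receptor LIFR, or with vehicle, which was 0.1% DMSO. Each treatment had 2 libraries of cells grown in RPMI medium with serum, and the vehicle libraries serve as the control. The study describes the libraries of a treatment as biologically independent samples, while the labels do not say that they came from separate cultures. The p-values therefore measure the spread between these libraries, with each gene's variance drawn in part from all tested genes. The data cover a single line, dose and time.

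Growth factor and cytokine receptors, LIFR with its partner gp130 among them, can switch on RAS and then the kinase chain RAF, MEK and ERK. Active ERK enters the nucleus and phosphorylates ETS factors, and it relieves repression by capicua, a DNA-binding repressor encoded by CIC. The genes that then rise include the PEA3 factors, which carry the transcriptional output further, and a set of inhibitors that feed back on the pathway. Sprouty and SPRED proteins act upstream, at the level of RAS and RAF, and the DUSP proteins remove phosphate from ERK itself. In tumor cells with a busy ERK pathway these transcripts are commonly abundant.

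Between 25572494 and 31707553 reads per library were counted on genes, and both EC359 libraries were deeper than both vehicle libraries. The part of this depth difference in the results was not tested. Counts were scaled to the mean library size with TMM factors, which estimate each library's scale from the bulk of its genes, and these scaled values are called normalized counts below. Of all genes, 12706 had enough reads to be tested with edgeR's quasi-likelihood test, and all 10 ERK output genes were among them. A gene was called when its p, adjusted over all tested genes by the method of Benjamini and Hochberg and written below as the edgeR adjusted p, was under 0.01, the threshold of the study. Across the transcriptome 38 genes were called higher with EC359 and 101 lower, or 52 and 68 when libraries were scaled by total counts only. The study, which used DESeq, reports many more genes at p under 0.01, so these counts do not reproduce its count. The labelled identity of the cells was checked with markers. The keratin genes KRT7 and KRT18 had 248 to 288 CPM (counts scaled to library size) and VIM 4800 to 5590, whereas EPCAM and MUC16, markers of epithelial ovarian tumors, had 4 and 0 reads over the 4 libraries. Of 10 markers of leukocytes, endothelium and red cells, 8 had at most 5 reads in all. The exceptions were CD68 and CDH5, and the summed level of the 10 was 214 to 228 CPM with vehicle and 214 to 216 with EC359.

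The promoters are shown first, because capicua sites are the sequence feature that several ERK output genes are known for. RefSeq promoter windows on GRCh38, which run from 250 bases before to 50 bases after a transcription start, were available here for 6 of the 10 genes, in 13 windows that partly overlap. No entry was used for ETV4, ETV5, DUSP4 and DUSP5. The capicua octamer was searched on both strands as TGAATGAA, TGAATGGA, TCAATGAA and TCAATGGA. A match was found in windows of 2 genes, DUSP6 and ETV1, which are printed below with the octamer in capitals. The DUSP6 window lies at chr12:89352452-89352751 and the ETV1 window at chr7:13991376-13991675, both on the minus strand, and each is written 5′ to 3′ along its gene.
DUSP6 promoter: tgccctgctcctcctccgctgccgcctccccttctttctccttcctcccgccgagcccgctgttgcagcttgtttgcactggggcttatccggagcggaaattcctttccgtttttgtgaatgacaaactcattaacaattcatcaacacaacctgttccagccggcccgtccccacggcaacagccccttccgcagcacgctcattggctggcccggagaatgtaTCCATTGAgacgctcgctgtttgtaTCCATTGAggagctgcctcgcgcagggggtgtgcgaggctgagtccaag
ETV1 promoter: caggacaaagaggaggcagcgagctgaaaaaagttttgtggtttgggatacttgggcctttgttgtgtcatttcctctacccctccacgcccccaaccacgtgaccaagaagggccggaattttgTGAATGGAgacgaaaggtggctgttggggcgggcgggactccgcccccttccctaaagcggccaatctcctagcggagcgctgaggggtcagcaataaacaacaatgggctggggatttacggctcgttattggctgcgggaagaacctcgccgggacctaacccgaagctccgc

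In the DUSP6 window TCAATGGA stands at 2 positions on the strand opposite to the gene, beginning 24 bases before and 1 base after the start site. In the ETV1 window TGAATGGA begins 125 bases before the start, on the strand of the gene, and the other ETV1 windows held no match. By window, 2 of the 13 held at least 1 of the octamers, as did 3.77% of all 35116 windows of this length. The ETS core CCGGAAG was found in 0 of the 13 windows and in 10.3% of all windows. The pair of genes with an octamer did not share a direction: with EC359 the log2 fold change of DUSP6 was 0.093 and that of ETV1 was -0.098, and neither gene was called. A match in these letters is a description of the sequence only.

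To see how strongly the pathway's output was expressed before any treatment effect, levels were set on a scale that corrects for transcript length, RPKM, which is the CPM divided by the length of the transcript in kilobases. With vehicle SPRY2 had the highest level, 101 ± 1.48 (SD, n = 2), followed by DUSP5 with 81.4 ± 1.1, PHLDA1 with 56.3 ± 1.47 and DUSP6 with 44 ± 0.543. ETV5 followed with 35 ± 0.0534, SPRY4 with 27.9 ± 0.387, SPRED1 with 26.5 ± 0.0896 and DUSP4 with 21.7 ± 0.118. The lowest levels were those of ETV4 with 16.7 ± 1.12 and ETV1 with 14.3 ± 0.0876. Each neighboring pair in this order was separated in both vehicle libraries. In the EC359 libraries SPRY4 (25.3 and 26.3) and SPRED1 (27.2 and 26) overlapped, as did ETV4 (13.1 and 14.3) and ETV1 (13.4 and 13.3). All 10 vehicle levels stood above the median of the tested genes, from the 59.6th percentile for ETV1 to the 93.7th for SPRY2. The lengths are those of 1 reference transcript per gene, from 2286 bases for SPRY2 to 7270 for SPRED1, and a gene that uses a shorter form in these cells would stand higher.

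**Figure D1:**
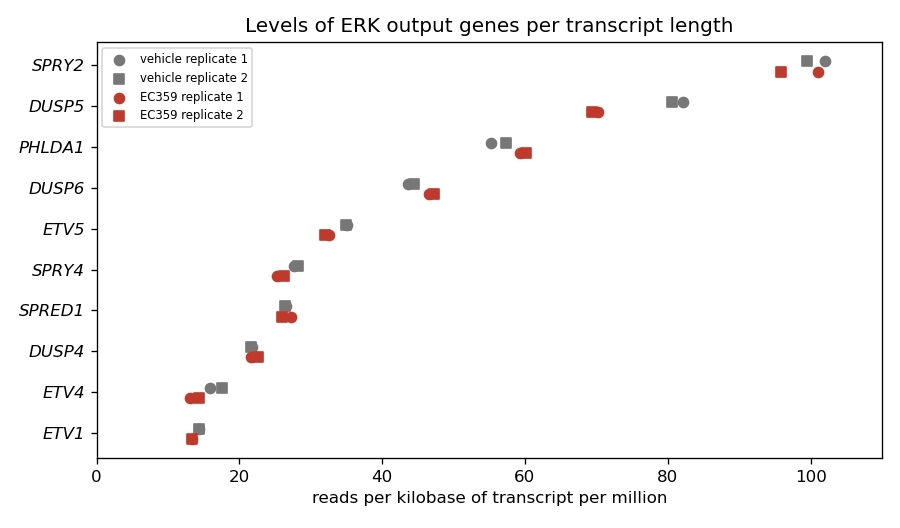
Level of each of the 10 ERK output genes in RPKM, reads per kilobase of transcript scaled to library size (x axis), with 1 point per library, vehicle in gray and EC359 in red. SPRY2 and DUSP5 stand highest and ETV4 and ETV1 lowest, and the DUSP5 points of the treatments (80.6 and 82.1 with vehicle, 69.4 and 70.2 with EC359) lie well apart.

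With EC359 the ERK output genes differed little from vehicle, and not in 1 direction. DUSP5 fell by 14.2% and was the 1 gene of the 10 to be called. ETV4 differed most, by -18.2%, but it also varied most between replicates of these genes and was not called (edgeR adjusted p = 0.0484). The other log2 fold changes ran from -0.12 for ETV5 to 0.093 for DUSP6. Thus 0 of the 10 were called higher and 1 was called lower by edgeR, where 0.299% and 0.795% of all tested genes were called in these directions. At an adjusted p under 0.05 the count was 0 higher and 2 lower, against 1.68% and 2.64% of all tested genes. At an unadjusted p under 0.05, 2 were higher and 5 were lower, against 10.7% and 11% of all tested genes. ETV4 is among the lower genes in both of these counts. Both EC359 libraries lay below both vehicle libraries for 5 genes (ETV1, ETV4, ETV5, SPRY4 and DUSP5) and above them for 2 (DUSP6 and PHLDA1), and such a separation was present in 25.4% and 26.1% of all tested genes. The median log2 fold change of the 10 was -0.063, and that of all tested genes was 0.0029.

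**Figure D2:**
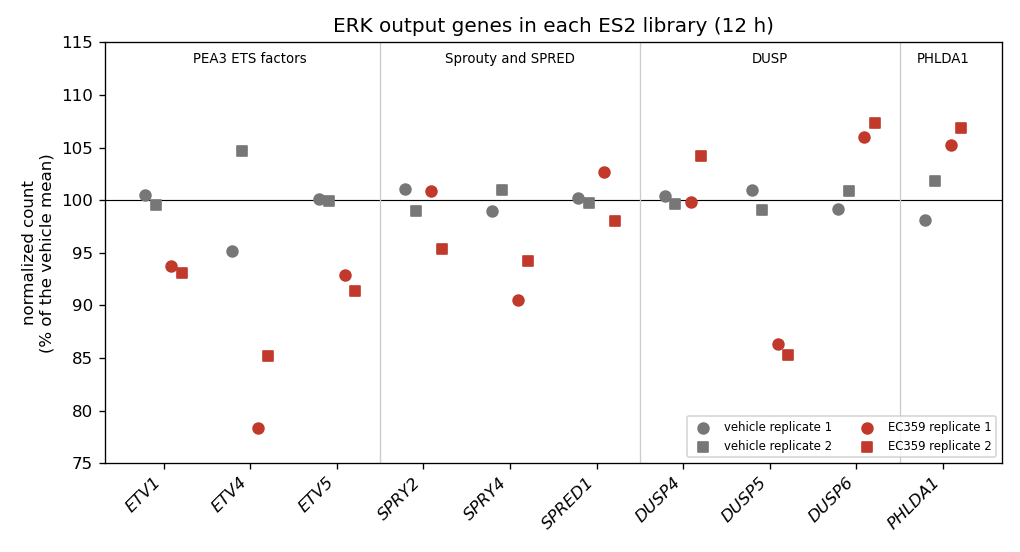
Normalized count of each ERK output gene in each library as a percentage of the gene's vehicle mean (y axis, which does not start at 0), with vehicle in gray and EC359 in red. The EC359 points of ETV1, ETV4, ETV5, SPRY4 and DUSP5 lie below both vehicle points, those of DUSP6 and PHLDA1 lie above them, and the points of SPRY2, SPRED1 and DUSP4 overlap.

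The PEA3 factors are closely related DNA-binding proteins that ERK both phosphorylates and induces. All 3 genes had a lower mean with EC359, as did 6230 of the 12706 tested genes. The study shows ETV4 among its ferroptosis-repressing genes from these same samples, so its direction is not independent evidence. ETV4 (GRCh37 chromosome 17, 41605212 to 41656988) had 1050 and 1155 normalized counts in the vehicle libraries and 864 and 940 in the EC359 libraries. The groups did not overlap, but the vehicle replicates were almost as far apart as the nearest libraries of opposite treatments. In both treatments replicate 2 was the higher one, by a log2 of 0.14 with vehicle and 0.12 with EC359. Whether same-numbered libraries share a batch is not stated. The log2 fold change of ETV4 was -0.29, with a standard error (SE) of 0.071 (95% interval -0.45 to -0.13, edgeR adjusted p = 0.0484). ETV5, on chromosome 3 from 185764103 to 185828107, had 4040 and 4031 normalized counts with vehicle and 3750 and 3689 with EC359. Its replicates were nearly equal, and the difference was small (log2 fold change -0.12, SE 0.037, edgeR adjusted p = 0.0982). ETV1, on chromosome 7 from 13930854 to 14031050, had 2621 and 2598 normalized counts with vehicle and 2446 and 2429 with EC359. It too was separated between treatments without being called (log2 fold change -0.098, SE 0.042, edgeR adjusted p = 0.211). Each PEA3 gene kept a negative sign in each of the 15 alternative fits, and the PEA3 median of -0.12 ran from -0.15 to -0.094 over them. These fits reuse the same libraries, in which both EC359 values lay below both vehicle values for each PEA3 gene. The kept sign is therefore no separate support for a fall.

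The call of ETV4 depended on the fit. It passed 0.01 with edgeR's exact test (adjusted p = 0.00589), with each library's trend against GC content removed (adjusted p = 0.000725) and without vehicle replicate 1 (adjusted p = 0.00469). The replicate numbers as a block also brought it past 0.01 (adjusted p = 0.000249). It did not pass with DESeq2 (adjusted p = 0.0602) or limma voom (adjusted p = 0.0458). A few 50-base windows of the ETV4 transcript (0.306%) lie in DHX8, a neighbor on the opposite strand, and 2.88% of those of ETV5 lie in DGKG on the same strand. Reads that the counting found ambiguous between genes were left out of the counts. Whether reads in the DHX8 overlap were among them depends on the strand setting, which is not given in the sources used here.

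Sprouty and SPRED proteins restrain the pathway between the receptor and RAF, and 0 of their 3 genes described here were called by edgeR. At an unadjusted p under 0.05, 1 was lower, against 11% of all tested genes. SPRY4, on chromosome 5 from 141689992 to 141706020, had 3823 and 3899 normalized counts with vehicle and 3495 and 3638 with EC359. The EC359 libraries were both lower, and the gene was not called (log2 fold change -0.11, SE 0.04, edgeR adjusted p = 0.127). SPRY2, on chromosome 13 from 80910111 to 80915261, had 6552 and 6417 normalized counts with vehicle and 6542 and 6180 with EC359. SPRED1, on chromosome 15 from 38545037 to 38649450, had 5447 and 5421 with vehicle and 5578 and 5325 with EC359. In both genes the treatments overlapped, and EC359 replicate 1 was higher than EC359 replicate 2. The log2 fold change of SPRY2 was -0.028 with a 95% interval of -0.11 to 0.057, and that of SPRED1 was 0.0048 with an interval of -0.077 to 0.087. Both intervals include 0, and they do not show that the treatments were equal.

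The remaining Sprouty and SPRED genes had fewer reads and were not called. For SPRY1 the normalized count averaged 201 ± 7.24 with vehicle and 175 ± 7.41 after EC359 (SD, n = 2), and its log2 fold change was -0.20 (edgeR adjusted p = 0.365). SPRED2 had 2187 ± 16.7 and 2336 ± 56.9 (log2 fold change 0.096, edgeR adjusted p = 0.251). SPRED3 had 16.7 ± 3.13 and 18.1 ± 1.87, and SPRY3 had 0 reads in each library.

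DUSP4, DUSP5 and DUSP6 encode phosphatases that take phosphate from MAP kinases. DUSP4 and DUSP5 are nuclear proteins and DUSP6 is cytoplasmic, and DUSP5 and DUSP6 act mainly on ERK. DUSP5, on chromosome 10 from 112257665 to 112271291, had 5741 and 5631 normalized counts with vehicle and 4908 and 4849 with EC359. The gap between treatments was several times the distance between replicates. The fall was called (log2 fold change -0.22, SE 0.035, 95% interval -0.30 to -0.14, edgeR adjusted p = 0.00781), and by its unadjusted p DUSP5 stood 116th of the 12706 tested genes. DUSP6, on chromosome 12 from 89741012 to 89746278, had 4460 and 4539 normalized counts with vehicle and 4769 and 4829 with EC359. Here the EC359 libraries were both higher, by 6.66% on average, and the gene was not called (log2 fold change 0.093, SE 0.035, edgeR adjusted p = 0.163). DUSP4, on chromosome 8 from 29190581 to 29208201, had 3408 and 3382 normalized counts with vehicle and 3390 and 3539 with EC359. Its treatments overlapped, with a log2 fold change of 0.029 and a 95% interval of -0.06 to 0.12.

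Because a ratio of raw counts within a library does not depend on how libraries are scaled, DUSP5 was also set against DUSP6, a pair taken after their values were seen and therefore given without a test. DUSP5 had 1.29 and 1.24 times the reads of DUSP6 in the vehicle libraries, and 1.03 and 1 times in the EC359 libraries. Against DUSP4 the ratio was 1.68 and 1.67 with vehicle and 1.45 and 1.37 with EC359. The treatments did not overlap in either ratio. The ratio of ETV4 to ETV5, 0.26 and 0.287 with vehicle and 0.23 and 0.255 with EC359, did not overlap either, by a small margin. For DUSP5 and DUSP6 the lack of overlap follows from the counts above, since DUSP5 was lower and DUSP6 higher in both EC359 libraries. These ratios restate the counts and are no separate support for the call of DUSP5.

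The call of DUSP5 held in 9 of the 11 alternative fits to all 4 libraries. Its edgeR adjusted p was 0.0122 with total counts only and 0.0169 without a filter. Without vehicle replicate 1 or 2 it was 0.00308 or 0.000466. Without EC359 replicate 1 or 2 it was 0.348 or 0.299, and in these fits 0 and 2 genes of the whole transcriptome were called. The log2 fold change stayed between -0.24 and -0.20 in the 15 fits. For DUSP6, 22.8% of the 50-base windows of the transcript lie in an annotated antisense RNA that has no row in the counts, and since the strand setting of the counting is not given in the sources used here, reads of the pair cannot be told apart.

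**Figure D3:**
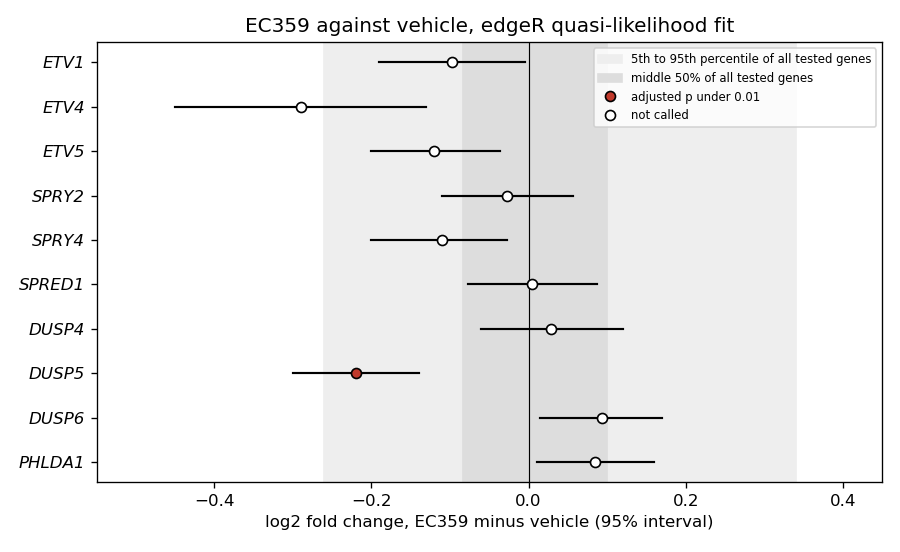
Log2 fold change of each ERK output gene, EC359 minus vehicle (x axis), with its 95% interval from edgeR's quasi-likelihood fit. Filled points were called. The light band marks the 5th to 95th percentile of all tested genes (-0.26 to 0.34) and the darker band their middle 50% (-0.084 to 0.10). DUSP5 is the only filled point, ETV4 lies outside the light band, and the intervals of SPRY2, SPRED1 and DUSP4 include 0.

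PHLDA1 encodes a pleckstrin homology-like protein whose transcript is induced by growth factors and stress. It lies on chromosome 12 from 76419227 to 76425556 and had the most reads of the 10 genes, 9226 and 9573 normalized counts with vehicle and 9894 and 10046 with EC359. Both EC359 libraries were higher, by 6.07% on average, a difference that was not called (log2 fold change 0.085, SE 0.033, edgeR adjusted p = 0.174). For PHLDA1, 8.58% of the windows are shared with other transcripts, the antisense PHLDA1-AS1 among them.

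Genes of the same pathway were then examined from lists written from general knowledge, with earlier results of these data known. A list of genes from receptor to ERK had 29 tested genes, including the kinase genes RPS6KA1, RPS6KA2 and RPS6KA3, which act downstream of ERK. Of these, 0 were called higher and 1 was called lower by edgeR's quasi-likelihood test. At an unadjusted p under 0.05, 3 were higher, RPS6KA2 among them, and 2 were lower, against 10.7% and 11% of all tested genes. The median log2 fold change of these 29 was 0.03, and it was 0.017 without vehicle replicate 1 and 0.018 without EC359 replicate 2. Over all alternative fits it ran from 0.0034 with the length trend removed to 0.054 with total counts only. The gene called was MAP2K1, which encodes MEK1, the kinase that phosphorylates ERK. It had 4341 and 4284 normalized counts with vehicle and 3645 and 3576 with EC359, so that the treatments were far apart and the replicates close. MAP2K1 fell by 16.3% (log2 fold change -0.26, SE 0.037, edgeR adjusted p = 0.0055). It was not called without a filter (adjusted p = 0.0121), without EC359 replicate 1 (adjusted p = 0.29) or without EC359 replicate 2 (adjusted p = 0.295), and it was called in the other 12 of 15 alternative fits. Next by adjusted p were IL6ST, which encodes gp130, with 6566 and 6380 normalized counts with vehicle and 7379 and 7240 with EC359 (log2 fold change 0.18, edgeR adjusted p = 0.0203), and NRAS, whose log2 fold change was -0.15 (adjusted p = 0.0416). MAPK3, which encodes ERK1, averaged 715 ± 4.51 in the vehicle and 718 ± 20.5 in the EC359 libraries (normalized counts, SD, n = 2), and its log2 fold change was 0.0059 (edgeR adjusted p = 0.975).

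Of 24 further ERK output genes that were tested, 16 had a higher and 8 a lower mean with EC359, where 6476 and 6230 of all tested genes did. By edgeR's quasi-likelihood test 0 were called in either direction, with 6 higher and 3 lower at an unadjusted p under 0.05, against 10.7% and 11% of all tested genes. Their median log2 fold change was 0.094, but it was 0.022 and 0.065 without vehicle replicates 1 and 2, and 0.065 and 0.047 without EC359 replicates 1 and 2. The immediate early transcription factor genes FOSB and EGR1 had log2 fold changes of 0.56 and 0.27 (edgeR adjusted p = 0.0301 and 0.0284). FOSB had 148 and 169 normalized counts with vehicle and 241 and 226 with EC359, and EGR1 had 1270 and 1302 with vehicle and 1495 and 1610 with EC359. IL8, a chemokine gene now named CXCL8, had a log2 fold change of -0.19 (edgeR adjusted p = 0.0304). CCND1, the cyclin D1 gene, and the Eph receptor genes EPHA2 and EPHA4 had log2 fold changes of -0.061, 0.04 and 0.13 and were not called.

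Inhibitors of the cascade had a median of -0.048 over 15 tested genes, with 0 called by edgeR's quasi-likelihood test and 2 higher and 4 lower at an unadjusted p under 0.05, against 10.7% and 11% of all tested genes. The median was -0.028 without vehicle replicate 2 and -0.024 with total counts only. PEBP1, the RAF kinase inhibitor protein gene, had 6989 and 6973 normalized counts with vehicle and 6056 and 6246 with EC359 (log2 fold change -0.18, edgeR adjusted p = 0.0169). ERRFI1, an inhibitor of the EGF receptor, and the RAS GTPase-activating gene RASA3 had log2 fold changes of -0.12 and -0.19 (adjusted p = 0.0526 and 0.0563). Among 5 other MAP kinase phosphatases that could be tested, 0 were called. At an unadjusted p under 0.05, 1 was higher, against 10.7% of all tested genes. This was DUSP10, a phosphatase of JNK and p38, whose log2 fold change was 0.36 (edgeR adjusted p = 0.03), followed by DUSP16 at -0.16 and DUSP1 at 0.067 (adjusted p = 0.32 and 0.379).

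The 13 other ETS factors that could be tested had a median log2 fold change of -0.02, and 0 were called by edgeR's quasi-likelihood test. At an unadjusted p under 0.05, 1 was higher and 1 was lower, against 10.7% and 11% of all tested genes. The ETS factors with the lowest adjusted p were ETS2 (log2 fold change 0.11, adjusted p = 0.181), FLI1 (-0.13, adjusted p = 0.223) and ELF1 (-0.072, adjusted p = 0.444). ERF, an ETS repressor that ERK inactivates, had 1592 and 1902 normalized counts with vehicle and 1523 and 1729 with EC359, and its treatments overlapped. For the capicua complex, CIC had 828 and 1017 with vehicle and 953 and 1067 with EC359, also overlapping, and the log2 fold changes of CIC, ATXN1 and ATXN1L were 0.13, 0.16 and -0.043. Their median of 0.13 was -0.01 without vehicle replicate 1, 0.047 without EC359 replicate 2 and 0.032 with the GC trend removed. None of these 3 genes was called or had an unadjusted p under 0.05 in edgeR's quasi-likelihood test.

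**Figure D4:**
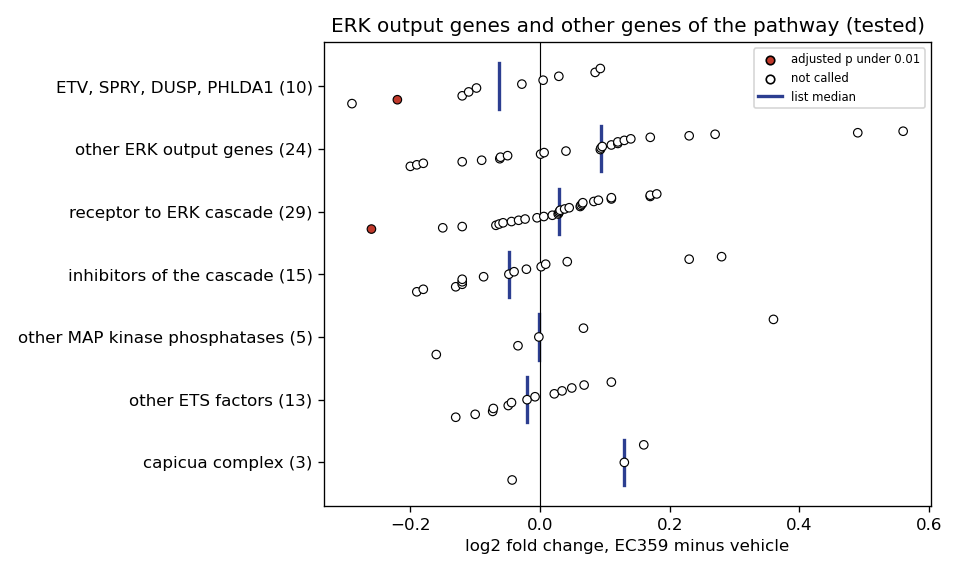
Log2 fold change, EC359 minus vehicle (x axis), of every tested gene in the 10 ERK output genes and in 6 lists of the same pathway, with the number tested in brackets. Filled points were called and vertical bars mark list medians. DUSP5 and MAP2K1 are the only filled points, and the list medians run from -0.063 for the 10 genes to 0.13 for the capicua complex, which was -0.01 without vehicle replicate 1.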

How the data were processed

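The authors prepared mRNA libraries from ES2 cells with a stranded kit, sequenced 50-base single-end reads, aligned them to UCSC hg19 with TopHat2 2.0.8b and counted reads on NCBI RefSeq genes with HTSeq. What was deposited is 1 file of counts per library, raw and by gene symbol. Summary rows stayed out of library sizes and testing; the shares outside any gene (10.9% to 12%) and ambiguous between genes (0.852% to 0.879%) refer to singly aligned reads. The strand setting is not given in the sources used here.

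From these counts, genes were kept with filterByExpr of edgeR 4.0.16 (minimum count 10, minimum total 15), scaled by TMM and compared by its quasi-likelihood F test (R 4.3.3, no replicate block), with Benjamini-Hochberg adjustment over 12706 genes. The study used DESeq and an adjusted p under 0.01. Standard errors are the log2 fold change over the square root of F, and intervals use 10.3 degrees of freedom. Of these, 8.28 (the median over genes) come from the variance of all tested genes. Standard errors and intervals therefore do not show a gene's own replicate spread alone. An exact permutation test of 2 libraries against 2 cannot go below 0.333 and was not used. Replicates differed by more than sampling noise (chi-square per degree of freedom 3.69 in vehicle, 2.65 in EC359 libraries) and were counted separately. The biological coefficient of variation was 3.5%.

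Places and lengths came from GENCODE on GRCh37, the assembly UCSC names hg19, which gave 86.1% of tested genes a length. Promoters came from RefSeq on GRCh38. The scripts were tested on simulated data, in which 42.6% of the genes changed by a log2 of 0.3 in either direction were called. In the real data the smallest log2 change called was 0.17 in size, so smaller changes could be missed. The genes and lists were chosen with earlier results of these data known. Named genes are the 10, a fixed set of relatives (SPRY1, SPRY3, SPRED2, SPRED3, CCND1, EPHA2, EPHA4, ERF, CIC and MAPK3), and in each list the called genes and up to 3 with the lowest adjusted p. Some items of the set and of the marker lists are not reported here. Alternatives were other scalings and filters, DESeq2 1.42.0, edgeR's exact test, limma 3.58.1 voom, a replicate block, GC or length trends removed, other thresholds, and each library left out.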

Additional observations from a re-analysis of the deposited data

How the results depend on the processing

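With RLE or upper-quartile factors, limma voom, at least 10 counts in every library, or the length trend removed, 1 of the 10 genes and 1 listed pathway gene were called, as in the reported fit. Counts are given here as genes called in all, of the 10 and of the pathway lists, where the reported fit had 139, 1 and 1. DESeq2 called 230, 1 and 3, edgeR's exact test 568, 2 and 8, and the fit with the GC trend removed 967, 2 and 14. Without a filter there were 61, 0 and 0, with 16620 genes tested. At an unadjusted edgeR p under 0.05 that fit had 2745 genes in all, 7 of the 10 and 23 listed genes. With total counts only there were 120, 0 and 1, and at an unadjusted edgeR p under 0.05 the counts were 2883, 6 and 27. An adjusted p under 0.05 gave 549, 2 and 8, and an unadjusted p under 0.01 gave 1255, 3 and 16. Leaving out 1 library in turn gave 0 to 539, 0 to 2 and 0 to 9, lowest without EC359 replicate 1 (1460, 3 and 16 at an unadjusted edgeR p under 0.05) and highest in all without vehicle replicate 2. These fits assume that the lone library of a treatment varies like the others. The cause of these differences between fits was not tested.

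The replicate numbers shared by the treatments are not said to mark a batch, and the deviations of same-numbered libraries had a correlation of 0.093. A replicate block called 1539 genes, 5 of the 10 (ETV4, ETV5, SPRY4 and DUSP5 lower, PHLDA1 higher) and 20 listed genes.

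Signs changed in some genes that were not called. SPRED1 was -0.041 and -0.032 with the GC or length trend removed, DUSP4 was -0.0051 with the length trend removed, and MAPK3 was -0.019 with the GC trend removed. Leaving out 1 library gave -0.07 to 0.013 for SPRY2, -0.03 to 0.038 for SPRED1, -0.0016 to 0.06 for DUSP4, -0.023 to 0.035 for MAPK3, -0.02 to 0.098 for EPHA2, -0.23 to 0.025 for ERF, -0.01 to 0.28 for CIC and -0.062 to 0.33 for SPRED3. The median of the 10 stayed negative, from -0.088 to -0.039. Medians changed sign for the SPRY and SPRED genes (0.013 without EC359 replicate 2), the DUSP genes (-0.0051 with the length trend removed, -0.0016 without EC359 replicate 2), the other MAP kinase phosphatases (0.022 with total counts only, 0.0018, 0.022 and 0.0056 without vehicle replicate 2 and EC359 replicates 1 and 2), the other ETS factors (0.0041 with total counts only) and the capicua complex (-0.01 without vehicle replicate 1).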
